A study of Sus scrofa with 17 samples.

Results

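The 10 genes described here encode the enzymes that make S-adenosylmethionine and polyamines, and their direct partners: MAT2A, MAT2B, AHCY, AMD1, SRM, SMS, ODC1, SAT1, AZIN1 and ARG2. They were taken by gene symbol from the 31908 genes of a count table of piglet muscle. All 10 passed the filter on low counts that left 14203 genes to test, and each had reads in every library. The set was chosen by values of these libraries as well as by function, since the diet differences of MAT2A and ARG2 were known when it was proposed. The levels and differences of the 10 genes are therefore a description, and no p-value is printed for them. Calls of these genes in the tests over all genes are also a description, since the choice used the same values.

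The animals were male Large White x Duroc piglets aged 28 days at the start, kept singly in metabolic cages and pair-fed for 2 weeks after 5 days of adaptation. Control piglets (6 libraries) received a diet of wheat, maize and soybean meal without seaweed. In the UL diet (6 libraries), 7% of the green seaweed Ulva lactuca replaced the control diet, and the ULU diet (5 libraries) held the same seaweed with 0.01% of ulvan lyase, an enzyme that cuts the seaweed cell wall polysaccharide ulvan. Each library came from the longissimus muscle of 1 piglet, so that replicates are separate animals. The UL vs control and ULU vs control comparisons address the effect of the seaweed without and with the enzyme, and ULU vs UL that of the enzyme. The first and second of these share the 6 control libraries, so that a low value in both is not seen in 2 independent sets of controls.

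Methionine is activated with ATP to S-adenosylmethionine, the methyl donor of the cell. After the methyl group is passed on, the remaining S-adenosylhomocysteine is split to homocysteine, which can be remethylated to methionine. S-adenosylmethionine also gives the aminopropyl groups of spermidine and spermine, which are polyamines like putrescine. Polyamines are small positively charged molecules that bind nucleic acids and are needed for translation and growth. Putrescine is made from ornithine, which arginase releases from arginine. Polyamine synthesis is held in check by the short life of ornithine decarboxylase and by antizymes, and acetylation marks polyamines for export or breakdown.

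The libraries held 16137365 to 26546810 counted reads, and levels are given in CPM, the read count scaled to library size after TMM normalization, which allows for differences in RNA composition. A count of 3 reads corresponded to 0.130 to 0.195 CPM, far below every level given here. Of 9 skeletal muscle markers, 6 were in the table. Their summed level was 119598 to 186485 CPM in control, 152505 to 191679 CPM in UL and 166352 to 306883 CPM in ULU. The share of counted reads from mitochondrial genes was 14.05% to 15.9% in control, 8.64% to 14.8% in UL and 8.002% to 11.6% in ULU, so that ULU and control did not overlap in this measure. Because these are bulk samples, fewer cells of a type and less RNA per cell cannot be told apart.

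Per kilobase of exon that no other gene shares, the level was highest for SAT1, with a mean over all libraries of 80.9 CPM per kb. ARG2 followed at 56.3, AZIN1 at 49.9, AMD1 at 42.8 and MAT2A at 40.8 CPM per kb. The unshared exon was 660 of 1449 bases for ARG2 and 2739 of 6660 for MAT2A. Dividing by the whole exon would give both genes lower values, so that their places depend on this scaling. The place of ARG2 depended on the diet, with a mean of 103 CPM per kb in control, where SAT1 was also at 103, but 31.4 in UL and 29.9 in ULU, below AZIN1 and AMD1. These 5 genes exchanged places between libraries, and each of them ranked first in at least 1 library. MAT2B stood at 22.9 CPM per kb and SMS at 15.3, and each took ranks between 4 and 7. AHCY, at 6.07 CPM per kb, ranked 7 or 8 in every library. SRM, at 1.85, and ODC1, at 1.18 CPM per kb, were the 2 lowest in every library, and their order differed between libraries.

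The genes differed widely in how much they varied between piglets of the same diet. The SD of log2 CPM within diets was 1.00 for ARG2, a spread larger than that of 95.0% of the genes tested. It was 0.66 for SAT1, 0.48 for AMD1 and 0.44 for MAT2A. The smallest were 0.19 for SMS and 0.21 for AHCY.

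**Figure D1:**
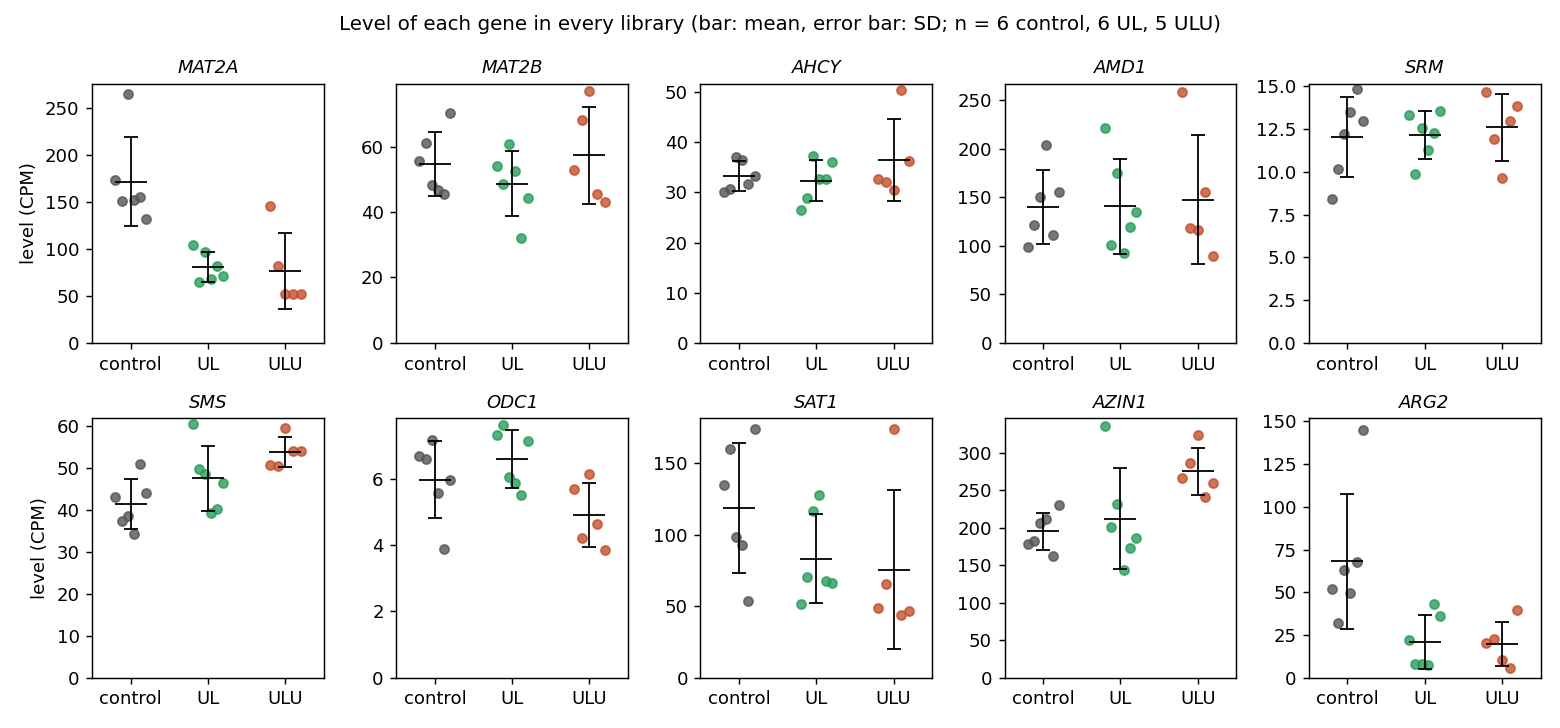
Level of each of the 10 genes (vertical axis, TMM-normalized CPM from 0) in every control, UL and ULU library, with 1 point per piglet, the mean as a long bar and the SD as error bars. All 6 UL points of MAT2A, at most 104.2 CPM, lie below the lowest control point at 132 CPM, and all 5 ULU points of AZIN1, at least 241 CPM, lie above the highest control point at 230 CPM.

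MAT2A (ENSSSCG00000022300, chromosome 3, 59211157 to 59225261 of Sscrofa11.1, minus strand) encodes the catalytic subunit of the methionine adenosyltransferase found outside the liver. Its level in the 6 control libraries had a lowest value of 132 CPM, a median of 154 and a highest value of 265 CPM. In UL the lowest, median and highest values were 65.0, 76.1 and 104.2 CPM. The 5 ULU libraries were at 146, 81.5, 52.1, 52.0 and 51.6 CPM. Every UL library lay below every control library, and 4 of 5 ULU libraries did, while ULU replicate 40, at 146 CPM, lay within the control range.

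The mean of MAT2A was 172 ± 47.5 CPM in control (SD, n = 6), 81.1 ± 16.1 CPM in UL (SD, n = 6) and 76.6 ± 40.6 CPM in ULU (SD, n = 5). The fitted log2(fold change) of UL vs control was −1.08 (SE 0.24), or 2.11-fold lower, and that of ULU vs control was −1.16 (SE 0.25), or 2.24-fold lower. In ULU vs UL it was −0.08 (SE 0.25). Without ULU replicate 40 the value in ULU vs control was −1.53. Without control replicate 23, the highest control library, it was −0.998, and −0.91 in UL vs control. Within diets, MAT2A was lower in libraries with a higher mitochondrial share, with r = −0.65 over 17 libraries. For this r the log2 CPM of MAT2A and the share in percent were each taken relative to the mean of the diet. Between diets, however, both were lower in ULU than in control. In a fit with this share as a covariate, the log2(fold change) of MAT2A against control was −1.67 in UL and −2.12 in ULU.

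Of the exonic bases of MAT2A, 58.9% also belong to GGCX on the opposite strand, and reads that touched both genes were not counted. GGCX had 25.4 ± 3.57 CPM in control (SD, n = 6), and its log2(fold change) was −0.21 (SE 0.11) in UL and −0.10 (SE 0.11) in ULU, both against control.

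MAT2B (ENSSSCG00000021229, chromosome 16, 60255357 to 60274085, minus strand), the regulatory subunit that binds MAT2A, did not separate the diets. Its lowest, median and highest levels were 45.6, 52.0 and 70.4 CPM in control and 32.0, 50.5 and 60.8 CPM in UL, and the ULU libraries ran from 43.0 to 77.0 CPM. The 3 diets overlapped, with a log2(fold change) of −0.17 (SE 0.17) in UL vs control and 0.07 (SE 0.17) in ULU vs control. The ratio of MAT2A to MAT2B, both per kb of unshared exon, was 2.77 ± 1.04 in control (SD, n = 6), 1.46 ± 0.392 in UL (SD, n = 6) and 1.18 ± 0.672 in ULU (SD, n = 5).

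AHCY (ENSSSCG00000007278, chromosome 17, 37726077 to 37744461, minus strand) splits S-adenosylhomocysteine to adenosine and homocysteine. It was at 30.1 to 37.1 CPM in control and 26.4 to 37.3 CPM in UL. In ULU 4 of the 5 libraries were between 30.5 and 36.3 CPM, and ULU replicate 43, the library with the lowest TMM factor (0.765), was at 50.5 CPM. The log2(fold change) of AHCY was −0.04 (SE 0.12) in UL vs control and 0.13 (SE 0.13) in ULU vs control, and the latter was −0.02 without ULU replicate 43.

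ARG2 (ENSSSCG00000002294, chromosome 7, 91343987 to 91385911, plus strand) encodes the mitochondrial arginase, which cleaves arginine to ornithine and urea. Its lowest, median and highest levels were 32.2, 57.2 and 145 CPM in control, and 7.35, 14.8 and 43.4 CPM in UL. The ULU libraries were at 20.2, 22.7, 10.6, 5.67 and 39.5 CPM. Of the UL libraries 4 of 6 lay below every control library, and of the ULU libraries 4 of 5. The highest library in all, control replicate 26 at 145 CPM, held over 4 times the level of the lowest control library, with a ratio of 4.49.

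The mean of ARG2 was 68.1 ± 39.5 CPM in control (SD, n = 6), 20.7 ± 15.9 CPM in UL (SD, n = 6) and 19.7 ± 13.1 CPM in ULU (SD, n = 5). Its fitted log2(fold change) was −1.72 (SE 0.50) in UL vs control, −1.79 (SE 0.53) against control in ULU, and −0.07 (SE 0.52) in ULU vs UL. These were the most negative values of the 10 genes against control, and those with the largest standard errors. Without control replicate 26 they were −1.35 and −1.41, and the lowest values with any library left out were −2.08 and −2.21. Relative to the diet means, ARG2 had r = 0.65 over 17 libraries with the summed level of the 2 Schwann cell markers in the table. This sum was 1.59 to 10.4 CPM in control, 0.347 to 17.6 CPM in UL and 0.444 to 6.16 CPM in ULU. Its lowest values were not far above the level of 3 reads. The 4 red blood cell markers were at 20.04 to 64.1 CPM in control, 35.5 to 90.6 CPM in UL and 34.3 to 72.03 CPM in ULU. With their sum ARG2 had r = 0.45. The part of Schwann cells and red blood cells in the diet differences of ARG2 was not tested. Of the exonic bases of ARG2, 54.5% also belong to VTI1B on the opposite strand, whose log2(fold change) was −0.25 (SE 0.12) in UL and −0.23 (SE 0.12) in ULU, both against control.

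**Figure D2:**
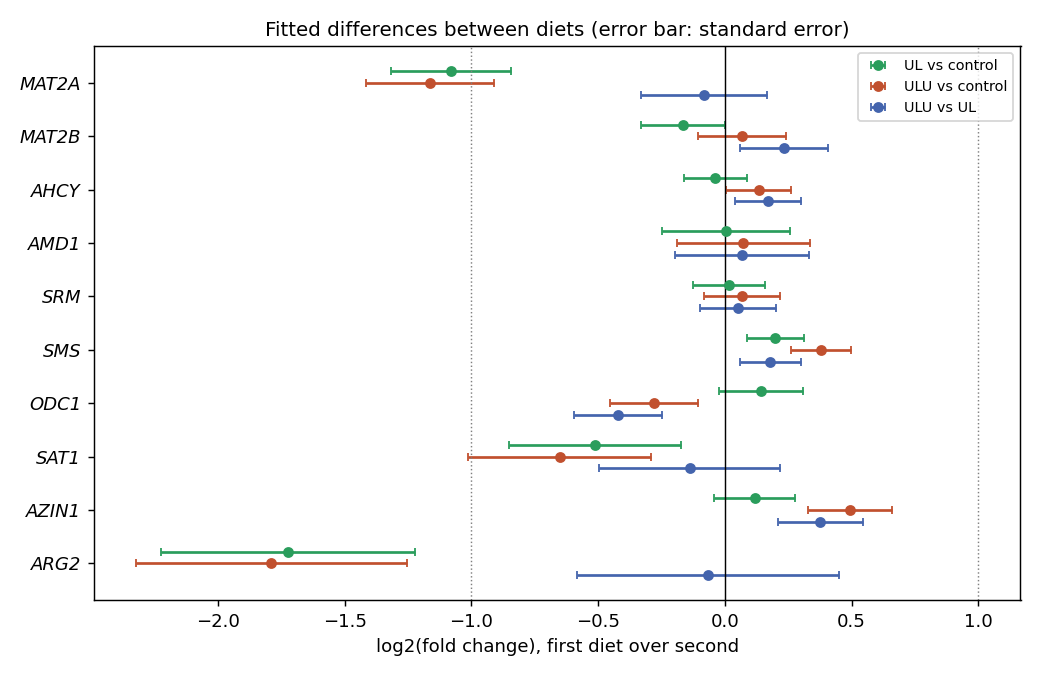
Fitted log2(fold change) of each gene (horizontal axis, first diet over second) in each of the 3 comparisons, with standard errors as bars and dotted lines at the fold change limit of 1 on either side. Against control, MAT2A and ARG2 are the 2 genes past the limit on the negative side, and AZIN1 has the most positive value, 0.49 in ULU vs control.

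ODC1 (ENSSSCG00000027121, chromosome 3, 126078418 to 126132577, plus strand), ornithine decarboxylase, makes putrescine from ornithine. It had 65 to 142 reads per library, the fewest of the 10 genes. Its lowest, median and highest levels were 3.88, 6.29 and 7.15 CPM in control and 5.52, 6.60 and 7.63 CPM in UL, and the ULU libraries were at 5.68, 4.22, 6.15, 4.63 and 3.84 CPM. The diets overlapped, with 3 of 5 ULU libraries below every UL library. ODC1 had a log2(fold change) of 0.14 (SE 0.16) in UL vs control, −0.28 (SE 0.17) in ULU vs control and −0.42 (SE 0.17) between the seaweed diets.

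AZIN1 (ENSSSCG00000023873, chromosome 4, 34209008 to 34257136, plus strand), the antizyme inhibitor, resembles ornithine decarboxylase without its activity and binds antizymes in its place. Its lowest, median and highest levels were 162, 194 and 230 CPM in control and 143, 193 and 336 CPM in UL. The ULU libraries were at 266, 285, 324, 241 and 260 CPM. Every ULU library lay above every control library, whereas UL spanned both, with UL replicate 27 at 336 CPM the highest of all. For AZIN1 the log2(fold change) was 0.12 (SE 0.16) in UL vs control, 0.49 (SE 0.17) in ULU vs control and 0.38 (SE 0.17) between ULU and UL.

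The value of AZIN1 in ULU vs control ran from 0.43 to 0.56 with any library left out, and was 0.10 with the mitochondrial share as a covariate. The ratio of AZIN1 to ODC1, both per kb, was 37.2 ± 7.29 in control (SD, n = 6), 35.5 ± 9.42 in UL (SD, n = 6) and 63.4 ± 10.7 in ULU (SD, n = 5). The lowest ULU ratio, 51.8, lay above the highest control ratio, 46.4, and just above the highest UL ratio, 50.9. How often ratios of 2 genes separate the diets in this way was not computed. AZIN1 alone already lay above control in every ULU library, as for 2.3% of all genes, and ODC1 had only 65 to 142 reads per library.

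AMD1 (ENSSSCG00000004392, chromosome 1, 76839731 to 76863738, plus strand) decarboxylates S-adenosylmethionine to the donor of the aminopropyl groups of spermidine and spermine. Its lowest, median and highest levels were 99.0, 136 and 204 CPM in control and 92.2, 127 and 221 CPM in UL, and the ULU libraries were at 258, 118, 116, 156 and 89.3 CPM. The 3 diets covered the same range, and ULU replicate 40 and UL replicate 27 were the 2 highest libraries. Its log2(fold change) was 0.00 (SE 0.25) in UL vs control and 0.07 (SE 0.26) in ULU vs control, and with the mitochondrial share as a covariate −0.50 and −0.68.

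SRM (ENSSSCG00000027689, chromosome 6, 71244143 to 71253508, minus strand), spermidine synthase, was at 8.40 to 14.8 CPM in control, 9.89 to 13.6 CPM in UL and 9.62 to 14.6 CPM in ULU. Its medians were 12.6, 12.4 and 12.96 CPM, and its log2(fold change) was 0.02 (SE 0.14) in UL vs control and 0.07 (SE 0.15) in ULU vs control.

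SMS (ENSSSCG00000012166, chromosome X, 18118468 to 18169396, plus strand), spermine synthase, had lowest, median and highest levels of 34.2, 40.8 and 50.9 CPM in control and 39.4, 47.6 and 60.5 CPM in UL. The ULU libraries were at 50.8, 50.5, 59.4, 54.1 and 54.1 CPM, of which 3 lay above every control library. The log2(fold change) of SMS was 0.20 (SE 0.11) in UL vs control, 0.38 (SE 0.12) in ULU vs control and 0.18 (SE 0.12) in ULU vs UL.

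SAT1 (ENSSSCG00000012173, chromosome X, 19907900 to 19910895, plus strand) acetylates spermidine and spermine. Its lowest, median and highest levels were 53.4, 117 and 174 CPM in control and 51.8, 68.9 and 128 CPM in UL. The ULU libraries were at 48.7, 65.6, 174, 43.7 and 46.8 CPM. The diets overlapped, with 3 of 5 ULU libraries below every control library and ULU replicate 42 as high as the highest control library. Against control, SAT1 had a log2(fold change) of −0.51 (SE 0.34) in UL and −0.65 (SE 0.36) in ULU, and in ULU vs UL it was −0.14 (SE 0.36). Without ULU replicate 42 it was −1.22 in ULU vs control, and without control replicate 26 it was −0.50.

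SAT1 varied with the macrophage and leukocyte markers. The summed level of the 8 markers CD68, CD163, CSF1R, PTPRC, CD14, AIF1, C1QA and C1QB was 93.6 to 236 CPM in control, 95.6 to 201 CPM in UL and 49.9 to 252 CPM in ULU, and none of them was at 0 in any library. With each log2 CPM value taken relative to its diet mean, SAT1 and this sum had r = 0.89 over 17 libraries. ULU replicate 42 had the highest marker sum, 252 CPM, as well as the highest SAT1 of its diet. The ratio of SAT1 to the marker sum was 0.684 ± 0.167 in control (SD, n = 6), 0.580 ± 0.101 in UL (SD, n = 6) and 0.635 ± 0.154 in ULU (SD, n = 5). For the summed fibroblast markers r with SAT1 was 0.73. In these correlations the values of 1 library share its depth and normalization. The part of macrophages, leukocytes and fibroblasts in the diet differences of SAT1 was not tested.

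Across all genes, the quasi-likelihood test of edgeR, adjusted by the Benjamini-Hochberg method, called 0 of 14203 genes at an adjusted p under 0.05 in UL vs control (0% called). It called 423 genes in ULU vs control (2.98% called) and 5 in ULU vs UL (0.0352% called). Of the 10 genes, 0, 1 and 0 were called, and the call in ULU vs control was MAT2A, which was among the 0.415% of genes that were called with a log2(fold change) past the limit of 1 as well. DESeq2 on all libraries called 153, 1067 and 248 genes, more than edgeR in each comparison and not only among the 10. The calls included MAT2A in UL vs control, and MAT2A, ARG2, AZIN1 and SMS in ULU vs control. Without control replicate 23, ULU replicate 43 or ULU replicate 44 in turn, or on the 2 diets alone, edgeR did not call MAT2A in ULU vs control. Among the fits with 1 library left out, it called SAT1 only without ULU replicate 42, beside 393 genes over all. AZIN1 was called only without UL replicate 27, beside 479 over all, and SMS only without control replicate 25, beside 799 over all. In UL vs control every UL library lay below every control library for 0.359% of all genes, MAT2A among them. In ULU vs control every ULU library lay above every control library for 2.3% of all genes, AZIN1 among them. The median log2(fold change) of the 10 genes was −0.02, 0.07 and 0.06 in the 3 comparisons, beside −0.00, −0.03 and −0.02 for all genes tested. At an unadjusted p under 0.05 the edgeR test found 10.8% of all genes in UL vs control, 18.9% in ULU vs control and 10.8% in ULU vs UL, and of the 10 genes 2, 4 and 2.

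The other genes of these pathways were followed in 8 lists, which name 76 genes, of which 70 were in the table and 63 were tested. In UL vs control, 0 of 63 were called by edgeR and 0 by DESeq2, with 4 at an unadjusted p under 0.05. In ULU vs control, 1 of 63 was called by edgeR, which was lower (0.993% of all genes were called lower), and 11 had an unadjusted p under 0.05. On all libraries DESeq2 called 6 in this comparison, beside 1067 over all genes. These were MTR as lower and EIF5A, AHCYL1, OAZ2, DOHH and NOS1 as higher. On the 2 diets alone DESeq2 called 3, beside 826 over all genes, which were MTR, DOHH and NOS1. AHCYL1 is named after its values were seen. In ULU vs UL, 0 of 63 were called by edgeR, with 7 at an unadjusted p under 0.05. DESeq2 on all libraries called 2, beside 248 over all genes. The median log2(fold change) of the 63 genes was −0.00, −0.01 and 0.01.

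The gene called was MTR, methionine synthase, which remethylates homocysteine to methionine with a methyl group from folate. It fell from 15.2 ± 1.53 CPM in control (SD, n = 6) to 9.61 ± 1.94 CPM in ULU (SD, n = 5), with every ULU library below every control library, as for 1.09% of all genes. Its log2(fold change) was −0.66 (SE 0.16), with a Benjamini-Hochberg adjusted p = 0.0336 in the quasi-likelihood test of edgeR. UL was at 11.2 ± 2.22 CPM (SD, n = 6), with an adjusted p = 0.296 against control and 0.674 for ULU vs UL in the same edgeR test. The adjusted p of MTR in ULU vs control ran from 0.0254 to 0.0715 in the edgeR fits that left out 1 library, and the call was lost without control replicate 22, 23 or 24, or ULU replicate 40, 41, 42 or 43. It was also lost with edgeR on these 2 diets alone, without the filter on low counts and with the mitochondrial share as a covariate.

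**Figure D3:**
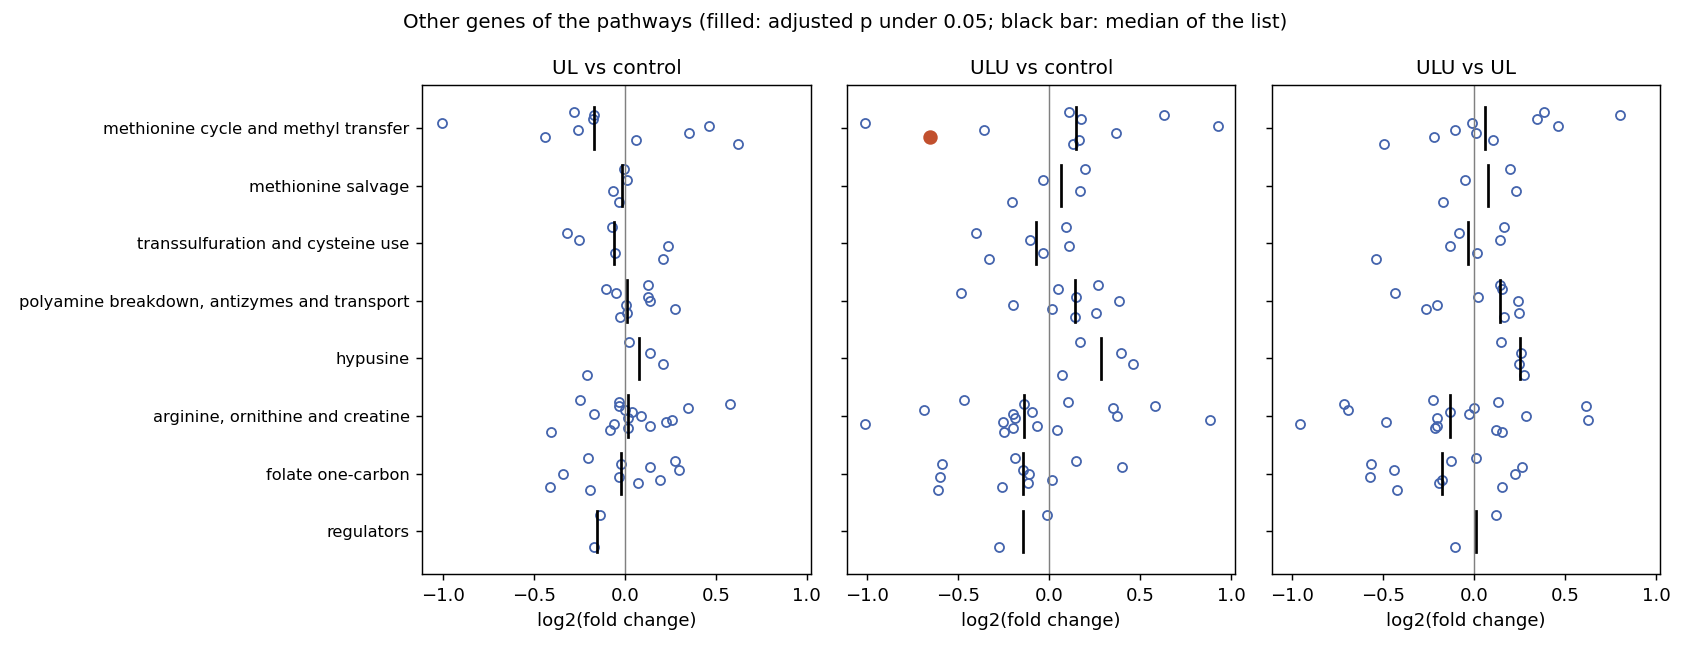
Fitted log2(fold change) of the 63 other pathway genes (horizontal axis) by list (vertical axis) in the 3 comparisons, with 1 circle per gene, filled where the adjusted p was under 0.05, and the median of each list as a black bar. The filled circle is MTR in ULU vs control at −0.66, and the medians of the lists lie near 0, with that of the 4 hypusine genes at 0.28 in ULU vs control.

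The methionine cycle and methyl transfer list had 10 tested genes, with a median log2(fold change) against control of −0.17 in UL and 0.15 in ULU. In methionine salvage, which recycles the sulphur-containing by-product of polyamine synthesis, 0 of 4 were called by edgeR or DESeq2, and ENOPH1 and ADI1 had values of 0.17 (SE 0.10) and 0.20 (SE 0.17) in ULU vs control. In transsulfuration, which leads from homocysteine to cysteine, 0 of 6 were called by either tool, with −0.40 (SE 0.33) for CTH and −0.33 (SE 0.43) for MPST in ULU vs control, and the value of CTH turned to 0.0925 with the mitochondrial share as a covariate. In the folate list 0 of 11 were called by either tool, with −0.61 (SE 0.25) for TYMS, thymidylate synthase, and 0.40 (SE 0.19) for MTHFD1 in ULU vs control.

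Among the 9 genes of polyamine breakdown, antizymes and transport, 0 were called by edgeR, and OAZ2 was called by DESeq2 on all libraries in ULU vs control. OAZ2, an antizyme, which sends ornithine decarboxylase to the proteasome, was at 84.1 ± 12.7 CPM in control (SD, n = 6) and 110 ± 13.2 CPM in ULU (SD, n = 5), with a log2(fold change) of 0.38 (SE 0.12) and an adjusted p = 0.0943 by edgeR with Benjamini-Hochberg adjustment. Across the edgeR fits that left out 1 library, the adjusted p of OAZ2 ran from 0.0385 to 0.216. OAZ2 was called only without control replicate 25. ATP13A2, a lysosomal polyamine exporter, had a value of 0.27 (SE 0.15) in ULU vs control, which turned to −0.0743 with the mitochondrial share as a covariate.

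Hypusine is an amino acid made from spermidine on the translation factor eIF5A. All 4 genes of this list had a positive log2(fold change) in ULU vs control, as had 6676 of the 14203 genes tested. Their median was 0.28, and 0 of 4 were called by edgeR. DESeq2 on all libraries called EIF5A and DOHH, and on the 2 diets alone it called DOHH. EIF5A was at 179 ± 45.8 CPM in control (SD, n = 6) and 246 ± 36.1 CPM in ULU (SD, n = 5), with an adjusted p = 0.0918 by edgeR with Benjamini-Hochberg adjustment. In the edgeR fits that left out 1 library, the adjusted p of EIF5A ran from 0.016 to 0.226. EIF5A was called only without control replicate 25. DOHH, which completes hypusine, was at 12.7 ± 1.16 and 16.7 ± 1.73 CPM (SD, n = 6 and 5), with an adjusted p = 0.101 in the same edgeR test. Every ULU library lay above every control library for DOHH, as for 2.3% of all genes.

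Of the 17 genes of arginine, ornithine and creatine metabolism, 0 were called by edgeR, and NOS1 was called in ULU vs control by DESeq2 on all libraries and on the 2 diets alone. NOS1, the nitric oxide synthase of muscle and nerve that uses arginine, was at 4.62 ± 1.73 CPM in control (SD, n = 6) and 8.50 ± 1.61 CPM in ULU (SD, n = 5), with a log2(fold change) of 0.88 (SE 0.27) and an adjusted p = 0.0794 by edgeR with Benjamini-Hochberg adjustment. Among the edgeR fits that left out 1 library, NOS1 was called only without control replicate 21, at an adjusted p = 0.035. With the mitochondrial share as a covariate, its log2(fold change) and that of DOHH changed sign. ASL, argininosuccinate lyase, which makes arginine, had a value of 0.58 (SE 0.26) in ULU vs control. The regulators MYC and MAX, whose dimer is known to drive ODC1 transcription, had values of −0.28 (SE 0.21) and −0.01 (SE 0.09), and neither was called.

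The 10 genes did not vary as a unit between piglets. Of the 45 pairs, 6 had an r of more than 0.5 in size over 17 libraries, again relative to the diet means, and r ran from −0.64 to 0.73. The share of all gene pairs past this size was not computed. The highest was MAT2B with SAT1, at 0.73, and the lowest SRM with SAT1, at −0.64. MAT2A and AMD1 had r = 0.61, which was 0.36 at its lowest with 1 library left out, and AMD1 and AZIN1 had r = 0.57. MAT2A and ARG2, the genes with the most negative values against control, had r = 0.13.

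**Figure D4:**
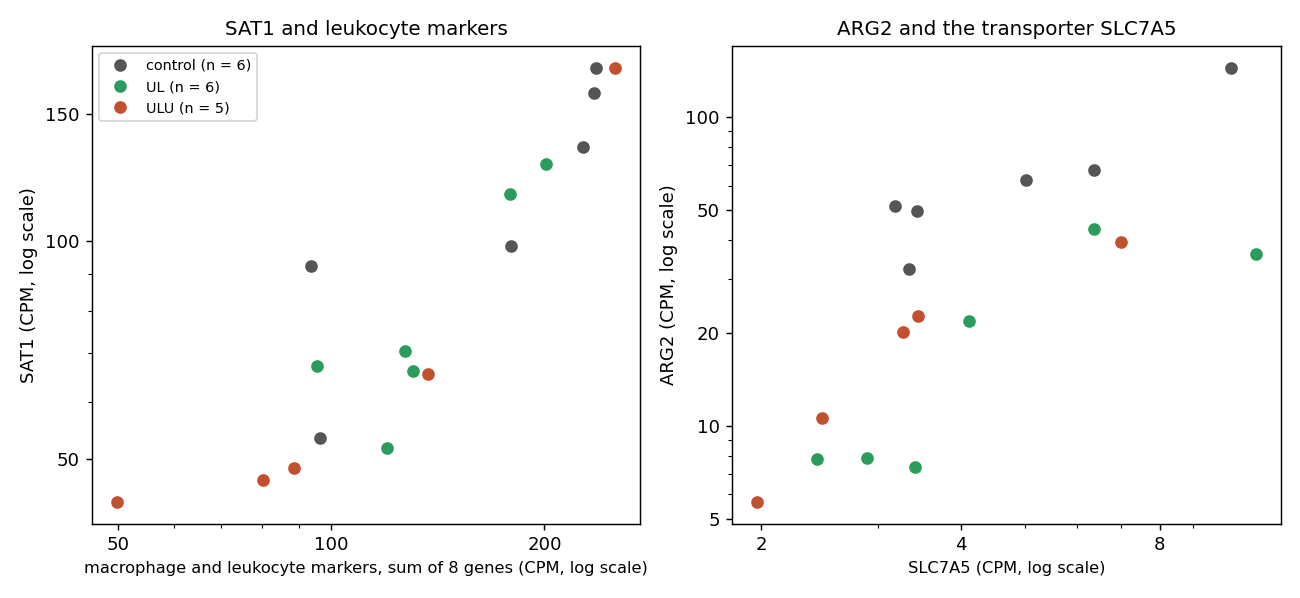
Level in each library (CPM, both axes on log scales, 1 point per piglet, coloured by diet) of SAT1 against the summed level of 8 macrophage and leukocyte markers, and of ARG2 against SLC7A5. SAT1 and the marker sum rise together over the 3 diets, with ULU replicate 42 at the upper end at 252 CPM of markers, whereas at a given SLC7A5 level the control points of ARG2 lie above most UL and ULU points.

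By the same measure, the gene most like ARG2 among all genes tested was SLC7A5 (r = 0.89), a transporter of large neutral amino acids. It was at 5.27 ± 2.74 CPM in control (SD, n = 6), 5.07 ± 3.30 CPM in UL (SD, n = 6) and 3.63 ± 1.98 CPM in ULU (SD, n = 5). GARS1 (r = 0.85) and SARS1 (r = 0.84), which charge transfer RNA with glycine and serine, followed, with PSPH (r = 0.84) and PSAT1 (r = 0.84), which act in serine synthesis. At least 3 of these 5 remained among the first 5 with any library left out, and 2 of 5 with Spearman's correlation.

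For MAT2A the most similar genes were DIS3L (r = 0.82), EARS2 (r = 0.81), POLE2 (r = 0.80), MAGOHB (r = 0.80) and GEMIN2 (r = 0.79). This list was unstable, as 0 of the 5 remained among the first 5 without control replicate 23, and 2 of 5 with Spearman's correlation. For SAT1 they were CD68 (r = 0.97), GPR34 (r = 0.96) and ITGAM (r = 0.96), genes of macrophages and microglia, and 333 of 14202 other genes had an r with SAT1 over 0.8, compared with 3 for MAT2A and 9 for ARG2.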

How the data were processed

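RNA-seq reads of 17 muscle libraries were trimmed with fastp, aligned with HISAT2 to Sscrofa11.1 and counted per gene with featureCounts by the authors, and the deposited values are raw counts (version 2.0.1 in the header, Subread 1.5.1 in the submitters' processing notes). The header gives no strand option and no option to count reads at several sites or over several genes. The mean of the counts over all libraries, also deposited by the authors, was used only as a check. The methods name 6 piglets per diet, and 5 ULU libraries were used here.

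Of the 10 genes, AMD1 and SRM were named by their position in RefSeq, the others by gene ID. Counts were analysed with edgeR 4.0.16 (R 4.3.3) in 1 model of all 17 libraries: TMM, filterByExpr, quasi-likelihood F test and Benjamini-Hochberg adjustment over 14203 genes, with a threshold of 0.05. The SE was the absolute log2(fold change) divided by the square root of F. Log2 CPM used a prior count of 2. DESeq2 1.42.0, other size factors, no filter, fits of 2 diets, the mitochondrial share as a covariate and fits without each library were alternatives. The scripts were tested on simulated data. Other pathway genes were named where called, otherwise the 2 with the smallest p of each list. The genes and lists were chosen with earlier results of these data known.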

Additional observations from a re-analysis of the deposited data

How the results depend on the processing

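Of 720 values of the 10 genes under the alternatives, 713 moved by less than the spread between replicates. Most alternatives left out 1 library, which can hardly move a value that far, so the 713 is no measure of stability. SAT1 in ULU vs control, which went from −0.65 to −1.22 without ULU replicate 42, is among them. The other 7 of the 720 moved with the mitochondrial share as a covariate: MAT2A to −1.67 (UL vs control) and −2.12 (ULU vs control), AMD1 to −0.50 and −0.68, AZIN1 to −0.17 and 0.10, and AHCY to 0.39 in ULU vs control. In that fit CTH (0.0925), ATP13A2 (−0.0743), DOHH (−0.0019) and NOS1 (−0.20) changed sign in ULU vs control. The cause was not tested, and the share separates control from ULU, so that diet and share cannot be told apart.

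Genes called in UL vs control, 0 with edgeR, were 148 with DESeq2 on 2 diets, 153 with DESeq2 on all libraries, 2 with the covariate and 0 to 16 with 1 library left out (16 without control replicate 25). In ULU vs control, 423 became 826, 1067, 8 and 147 to 799 (799 without control replicate 25) in the same order, and 111 with edgeR on 2 diets, 228 without the filter and 59 with the fold change limit. In ULU vs UL, 5 became 231 and 248 with DESeq2, 2 with the covariate, 1 to 7 with 1 library left out, 1 with edgeR on 2 diets, 8 without the filter and 2 with the fold change limit. Pathway genes called in ULU vs control, 1 with edgeR, were 3 (DOHH, MTR, NOS1) with DESeq2 on 2 diets and 6 on all libraries, 0 with edgeR on 2 diets, without the filter or with the covariate, and 0 to 3 with 1 library left out. In ULU vs UL, DESeq2 called 2, ADK and AHCYL1, named after their values were seen. Of the 10 genes, DESeq2 and the covariate fit each called 1 in UL vs control (0 to 0 with 1 library left out), and in ULU vs control DESeq2 called 4, edgeR on 2 diets 0, and 0 to 2 were called with 1 library left out.

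Depth limits ODC1 most, at 65 reads in its lowest library. No paired analysis was possible because the replicate numbers in the labels are piglet numbers that no 2 diets share.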

Other observations

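In log2 CPM taken relative to the diet means, the values of 1 library share its depth and normalization, and r is given with no test. Over 17 libraries the remaining genes also had close companions. For MAT2B these were KYNU (r = 0.91), LCP2 (r = 0.85) and FCHSD2 (r = 0.85), and its r with the summed macrophage and leukocyte markers was 0.82, compared with −0.64 for SRM. For AHCY they were the cationic amino acid transporter SLC7A2 (r = 0.88), SEMA4B (r = 0.81) and PIK3C2B (r = 0.81). AMD1 was most like NAA15 (r = 0.90), GPATCH4 (r = 0.87) and THUMPD1 (r = 0.87), and SRM most like FBXL8 (r = 0.87), OPLAH (r = 0.86) and COX10 (r = 0.85). SMS was most like ZC3HC1 (r = 0.89), VEZT (r = 0.88) and ATG12 (r = 0.83), ODC1 most like TMEM26 (r = 0.85), PTPN2 (r = 0.84) and EIF4ENIF1 (r = 0.84), and AZIN1 most like NABP1 (r = 0.88), COX15 (r = 0.86) and EXOC5 (r = 0.86).

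The ratio of spermine to spermidine synthase, SMS over SRM per kb, was 7.61 ± 1.83 in control (SD, n = 6), 8.43 ± 1.51 in UL (SD, n = 6) and 9.41 ± 2.23 in ULU (SD, n = 5). The ratio of SAT1 to ODC1 per kb was 84.4 ± 26.4, 56.5 ± 25.7 and 63.6 ± 34.4 in the same order, and that of AMD1 to ODC1 was 36.3 ± 11.8, 32.1 ± 10.4 and 44.6 ± 15.4, with overlap between the diets in each.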
